A study of Gallus gallus with 21 samples.

Results

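Long noncoding RNAs (lncRNAs) that were higher in every embryonic cerebrum than in every adult one were selected from the deposited lncRNA table of Tibetan chickens. Selection required that each of the 8 embryonic libraries exceeded each of the 7 adult libraries, and that the embryonic mean of log2(FPKM+1) was at least 1 above the adult mean. FPKM counts fragments per length of transcript and per size of library, and cells without a value were set to 0. Of 39907 lncRNAs, 34 met these conditions, and all of them are described here. They were 0.106% of the 32013 lncRNAs detected in at least 2 libraries. Without the minimum difference, 79 lncRNAs had all embryonic libraries above all adult libraries. The mirrored conditions, with adults above embryos, were met by 86 lncRNAs.

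Total RNA depleted of ribosomal RNA was sequenced from the cerebrum of female Tibetan chickens, with each library from 1 bird. The libraries analysed came from embryonic days 12, 16 and 20 (E12 with 3 libraries, E16 with 3, E20 with 2), from 100 days of age (D100, 3 libraries) and from hens of 1, 3 and 5 years (Y1 with 3, Y3 with 2, Y5 with 2). The labels name no treatment and no genetic change, and groups differ by label in age and origin. As labelled, embryos came from incubated eggs, D100 birds from a farm in Ya'an and the hens from Lhasa. The paper describes rearing at Ya'an and does not name Lhasa. Age and place of rearing therefore cannot be told apart between these periods.

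LncRNAs are transcripts that do not encode a protein, and many of them are expressed in the brain at low levels and for a limited time. Some bind chromatin regulators or act on the transcription of genes beside them, whereas the role of most is unknown. Before hatching, the avian cerebrum passes through the birth and migration of neurons and the outgrowth of their processes, and after hatching circuits mature and glia expand. The 34 lncRNAs carry only the TU identifiers of the study's assembly, and their positions, exon structure and neighbouring genes were not analysed here.

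The pair with the largest differences, TU99158 and TU26292, are also those among the 34 for which the study designed quantitative PCR primers. Its panel held 10 lncRNAs. The paper reports that levels measured with this panel followed its sequencing over the stages, and those measurements were not analysed here. It drew the panel from lncRNAs that it called differentially expressed between adjacent stages, by another method and with a stage not analysed here. Both transcripts were in its green group of temporal profiles. The primers are the designed sequences that address these transcripts and are shown 5′ to 3′ for this reason.
TU99158 forward primer: tggtcaaggcgtagagggta
TU99158 reverse primer: atggggtttgctggcatgta
TU26292 forward primer: tccaggacccaaatacccct
TU26292 reverse primer: agcagagccccttaacatgg
Each primer has 20 bases. Their places in the genome were not analysed here.

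A library had a value for between 12618 and 20975 lncRNAs. In the embryos this number ran from 13480 to 20975 (median 17783), at D100 from 13509 to 14952, and in the hens from 12618 to 19227 (median 16590), so the periods overlapped. Since only FPKM was analysed, the error from counting reads was not computed. Identifiers of mRNAs could be matched to a gene symbol in 0 cases, and the makeup of the tissue was therefore not checked with marker genes. In whole cerebrum, fewer cells of a type and less RNA per cell cannot be told apart. Of the embryonic libraries, E20 replicate 1 stood apart. It had the fewest lncRNAs with a value among them, and without it 67 lncRNAs met the selection in place of 34, including all 34.

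As a group, the 34 lncRNAs took a larger share of lncRNA expression in the embryos, which the selection fixed. Their mean level on the log2(FPKM+1) scale was 3.07 ± 0.03 (SD, n = 3) at E12, 3.02 ± 0.14 (n = 3) at E16 and 2.67 ± 0.01 (n = 2) at E20. It was 1.98 ± 0.36 (n = 3) at D100, 1.36 ± 0.08 (n = 3) at Y1, 1.34 ± 0.12 (n = 2) at Y3 and 1.33 ± 0.22 (n = 2) at Y5. The 3 adult stages thus differed by less than the spread between birds, in libraries that the selection bounded from above. The D100 birds lay between the embryos and the hens. Together the 34 made up between 2.45% and 4.18% of the summed lncRNA FPKM in the embryos, between 1.50% and 2.52% at D100 and between 0.91% and 1.14% in the hens.

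**Figure D1:**
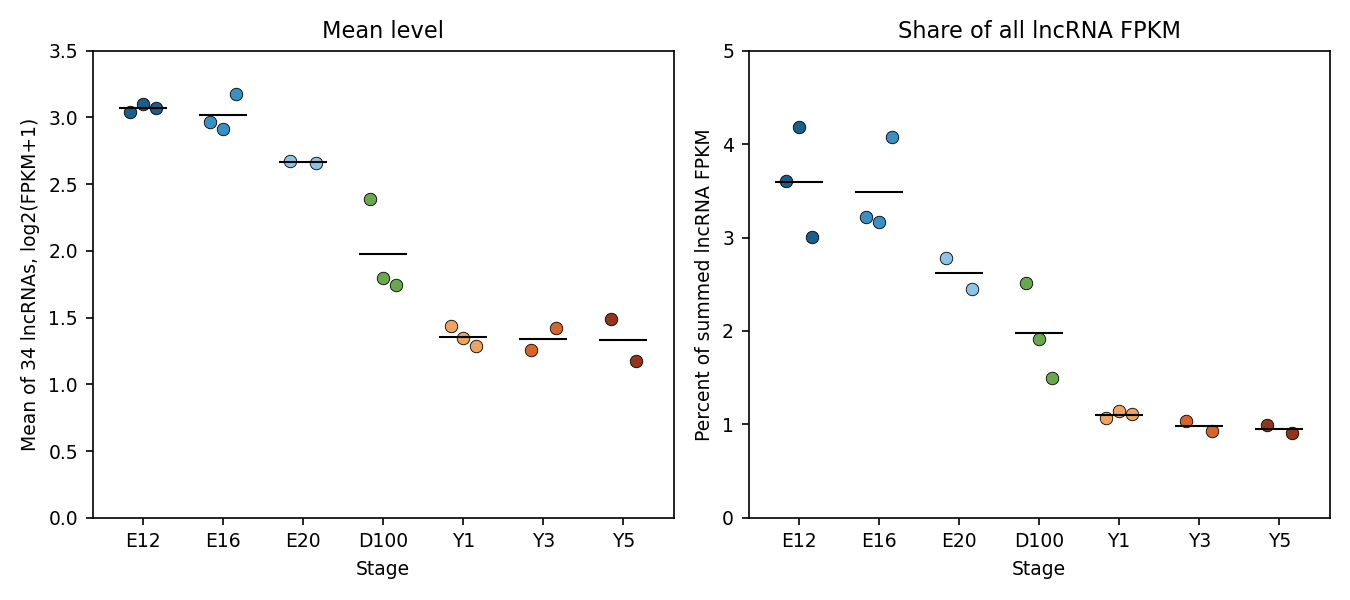
Mean log2(FPKM+1) of the 34 lncRNAs (left) and their percent of the summed FPKM of all lncRNAs (right) by stage. Each point is 1 library and each bar the stage mean. The 8 embryonic libraries lie between 2.66 and 3.18 in mean level and the 7 adult libraries between 1.17 and 1.49, with D100 at 2.39, 1.80 and 1.75.

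A single transcript carried much of this sum. TU71876 was the most abundant of the 34, with a mean of 339 FPKM in the embryos and 145 FPKM in the hens. Its level ran from 7.73 to 8.91 (median 8.29) in the embryos and from 6.93 to 7.41 (median 7.17) in the hens, and the D100 libraries were at 7.90, 7.65 and 7.34. It ranked between 1 and 3 among all lncRNAs in every embryonic library and between 3 and 6 in the others. By FPKM it was thus among the most abundant lncRNAs at all 7 stages analysed, and its difference of 1.17 was among the smaller ones selected. Without it, the summed FPKM of the remaining lncRNAs ran from 253 to 374 in the embryos and from 48.8 to 81.9 in the hens.

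**Figure D2:**
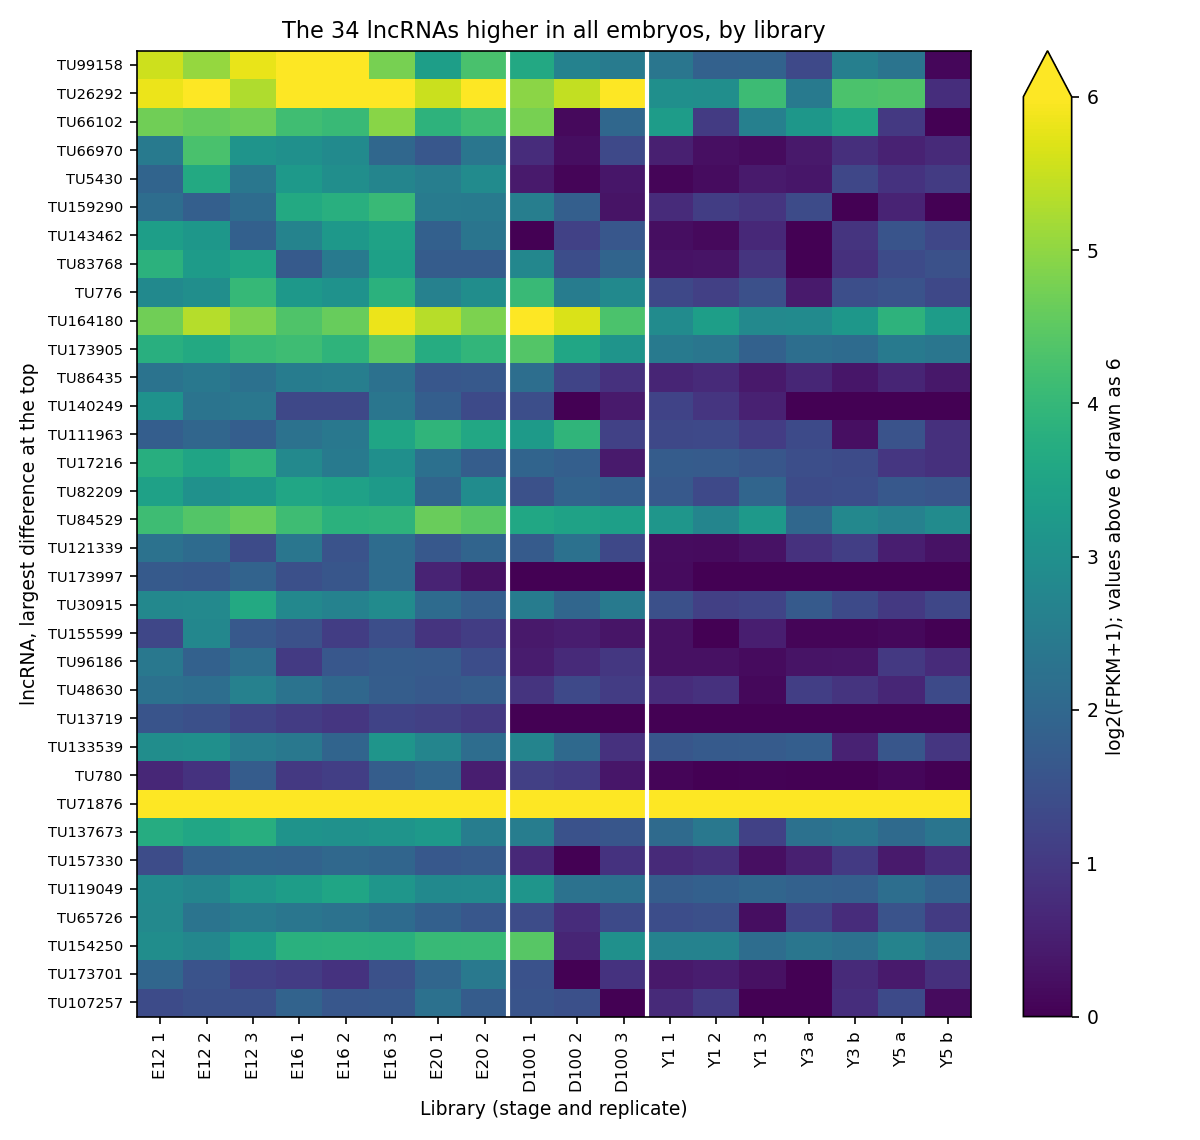
Level of each of the 34 lncRNAs (rows, in order of the embryonic minus adult difference) in the 18 libraries (columns) as log2(FPKM+1), with white lines between embryos, D100 and hens. All values above 6 have the same colour. TU71876 stays above 6 in all libraries, whereas TU13719 has no value outside the embryos and is drawn as 0 there.

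TU99158 had the largest difference. Its level was 5.55, 5.05 and 5.79 at E12, 6.14, 5.99 and 4.76 at E16, and 3.35 and 4.27 at E20. It was 3.63, 2.66 and 2.50 at D100, 2.36, 1.86 and 1.89 at Y1, 1.32 and 2.60 at Y3, and 2.31 and 0.10 at Y5. Both E20 birds lay below every E12 and E16 bird. The difference between E16 and E20 did not pass the test (limma, Benjamini-Hochberg-adjusted p = 0.534). The embryonic mean exceeded the adult mean by 3.34, and the mean FPKM was 39.8 in the embryos and 2.87 in the hens.

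TU26292 was the most abundant of the 34 after TU71876. Its level was 5.83, 6.15 and 5.29 at E12, 6.67, 6.28 and 6.05 at E16, and 5.51 and 6.10 at E20, and the E20 birds lay within the range of the earlier embryos. It was 4.96, 5.46 and 6.38 at D100, 2.98, 2.97 and 4.11 at Y1, 2.44 and 4.31 at Y3, and 4.35 and 0.79 at Y5. In contrast to TU99158, the D100 birds were near the embryos, and 1 of them exceeded all but 1 embryo. Its mean was 64.8 FPKM in the embryos and 10.5 FPKM in the hens, where the birds differed widely from each other.

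TU66102 was even in the embryos and uneven after hatching. In the embryos it ran from 3.89 to 4.92 (median 4.37). The D100 birds were at 4.78, 0.15 and 2.00, and the hens at 3.33, 1.04 and 2.62 (Y1), 3.17 and 3.54 (Y3), and 1.00 and 0.00 (Y5). Individual birds of 1 stage could thus differ more than embryos and hens did on average, where the difference was 2.29.

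TU66970 and TU5430 were low in every bird after hatching. TU66970 ran from 1.62 to 4.27 (median 2.67) in the embryos and from 0.17 to 0.81 (median 0.53) in the hens, and the D100 birds were at 0.77, 0.22 and 1.32. TU5430 ran from 1.92 to 3.66 (median 2.81) in the embryos and from 0.09 to 1.28 (median 0.43) in the hens, and the D100 birds were at 0.43, 0.09 and 0.37. For both, every D100 library lay below every embryonic library.

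TU159290 had a narrow maximum at E16. It was 2.14, 1.82 and 2.12 at E12, 3.65, 3.80 and 4.07 at E16, and 2.48 and 2.46 at E20, so that the E16 birds did not overlap with those of the other embryonic stages. The D100 birds were at 2.56, 1.82 and 0.33, and the hens ran from 0.00 to 1.36 (median 0.73).

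**Figure D3:**
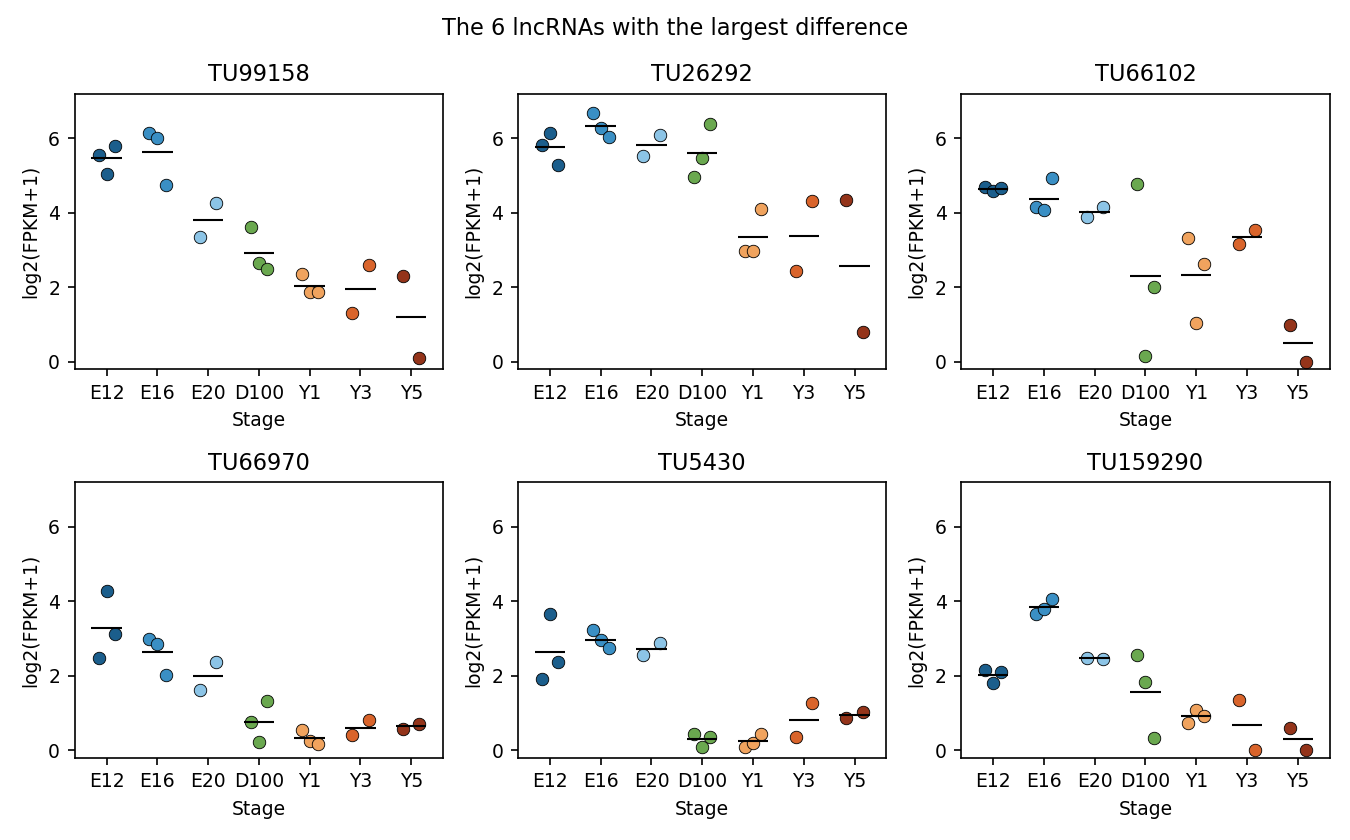
Level of the 6 lncRNAs with the largest embryonic minus adult difference by stage, as log2(FPKM+1). Each point is 1 library and each bar the stage mean. TU99158 is lower at E20 than at E16, TU159290 peaks at E16 with 3.65 to 4.07, and the D100 birds of TU66102 spread from 0.15 to 4.78.

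The next 4 by difference were TU143462, TU83768, TU776 and TU164180. TU143462 ran from 1.84 to 3.45 (median 2.92) in the embryos and from 0.00 to 1.57 (median 0.70) in the hens. TU83768 ran from 1.69 to 3.87 (median 2.88) in the embryos and from 0.00 to 1.49 (median 0.83) in the hens. Both had a hen without a value, and the E12 birds of TU83768 at 3.87, 3.30 and 3.52 exceeded its E20 birds, both at 1.75. TU776 ran from 2.64 to 4.02 (median 3.01) in the embryos and from 0.43 to 1.54 (median 1.31) in the hens. TU164180 ran from 4.34 to 5.83 (median 4.83) in the embryos and from 2.82 to 3.87 (median 3.18) in the hens, and remained well expressed in all hens.

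Over the 34 lncRNAs, the difference ran from 1.11 to 3.34 with a median of 1.45, and 7 exceeded 2. In linear FPKM the embryonic mean was 5.35 times the adult mean at the median over 33 lncRNAs. The remaining one, TU13719, had no value in any of the 7 hens and 3 D100 birds, and its embryonic level ran from 0.96 to 1.55. These values chose the members and are given as a description. Just inside the limit of 1 were TU154250 (1.13), TU173701 (1.12) and TU107257 (1.11), and just outside were TU99491 (0.98), TU838 (0.98) and TU97781 (0.96). The gap between the lowest embryo and the highest hen ran from 0.01 for TU82209 to 1.21 for TU173905 and was under 0.2 for 12 of the 34, so for many of them the separation was narrow. After median-ratio scaling 34 lncRNAs also met the conditions, of which 25 were among those described here.

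Most of the 34 were expressed at every stage analysed. A value was listed in all 18 libraries for 22 of them, in every hen for 23 and in every D100 bird for 27. A mean of at least 1 FPKM over all libraries was reached by 30 of the 34 and by 13.1% of the 32013 lncRNAs, which follows in part from the selection, since a difference of 1 cannot be reached at very low levels.

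The selection was repeated 15 times, each time without 1 of its libraries, and the library left out was then compared with those of the other period. When a library was left out, between 37 and 67 lncRNAs met the conditions. Of the 34, 33 or 34 were among them each time, and these lay on their own side in the left-out library because the selection had required it, so the counts describe the choice of members and test nothing. E20 replicate 1 exceeded every hen in 39 of the 67 chosen without it and was nearer to the adult mean than to the mean of the other embryos in 36 of 67. E20 replicate 2 exceeded every hen in 36 of the 40 chosen without it.

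Within the embryonic period the 34 lncRNAs followed different courses. By stage means, 15 were highest at E12, 13 at E16 and 6 at E20, whereas 22 were lowest at E20. The means of E12, E16 and E20 were in descending order in 14, highest at E16 in 13, lowest at E16 in 4 and in ascending order in 3. TU111963 was among the latter, with 1.78, 1.99 and 1.78 at E12, 2.26, 2.39 and 3.53 at E16, and 3.93 and 3.60 at E20. The selection bounded the embryonic libraries from below but did not use the order of these stages.

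TU17216, TU83768 and TU86435 were examples of lncRNAs whose stage mean was lower late in the embryonic period. TU83768 was 1.69, 2.46 and 3.40 at E16, so its E16 birds overlapped with those of E12 and with those of E20, both at 1.75. TU17216 was 3.77, 3.51 and 3.90 at E12, 2.82, 2.48 and 2.99 at E16, and 2.22 and 1.76 at E20, so that no 2 of these stages overlapped. The lower of its E20 birds was only 0.01 above the highest hen. TU86435 differed in being even over E12 and E16, with 2.24 to 2.56 in all 6 birds, before 1.63 and 1.69 at E20. Its D100 birds, at 2.17, 1.22 and 0.84, still exceeded every hen, since the hens ran from 0.36 to 0.71.

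TU154250 and TU84529 were examples of the opposite, being highest at E20. TU154250 was 2.95, 2.77 and 3.32 at E12, 3.80, 3.83 and 3.82 at E16, and 4.05 and 4.06 at E20, and these stages did not overlap. TU84529 was 4.14, 4.39 and 4.60 at E12, 4.13, 3.83 and 3.87 at E16, and 4.64 and 4.44 at E20, with its lowest values at E16. At D100 it was 3.57, 3.46 and 3.40, above all hens (2.01 to 3.21) and below all embryos, which held for no other of the 34. TU173905, with the widest gap, varied little over the embryonic stages, from 3.66 to 4.49, and ran from 1.86 to 2.45 in the hens.

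Between E12 and E16 the 34 moved little as a group. The median difference (E16 minus E12) was -0.03, with 16 above and 18 below 0, beside -0.07 over the 4206 lncRNAs with a mean of at least 1 FPKM. Every E16 bird exceeded every E12 bird in 5 of the 34, beside 3.52% of the 32013 lncRNAs. With a mean of at least 1 FPKM it was 5 of 30, or 16.7%, beside 8.32%. Every E16 bird was lower than every E12 bird in 5 of the 34, beside 6.42% of all, and in 4 of 30, or 13.3%, beside 15.7% at that level. TU159290 had the largest difference, 1.81 ± 0.45 (SE), which did not pass the test (limma, Benjamini-Hochberg-adjusted p = 0.184).

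Between E16 and E20 most of the 34 had a lower stage mean at the later stage. The median difference (E20 minus E16) was -0.35, beside -0.10 over the 4206 lncRNAs. It was below 0 in 27 of the 34, beside 57.5% of the 4206. Both E20 birds were lower than every E16 bird in 14 of the 34, beside 8.09% of the 32013 lncRNAs. At a mean of at least 1 FPKM it was 12 of 30, or 40.0%, beside 17.3% of the 4206. The opposite, both E20 birds above every E16 bird, was seen in 4 of the 34, beside 5.19% of all, and in 4 of 30, or 13.3%, beside 11.0%. Without E20 replicate 1 the count lower was 13 of 30 (43.3%, beside 27.0%), and without E20 replicate 2 it was 18 of 30 (60.0%, beside 39.9%). These counts describe the 34 and were not tested as a list. Values of all embryonic stages entered the selection, and the other lncRNAs were not chosen for being higher in embryos. Nothing is therefore read from these shares or from those between E12 and E16.

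**Figure D4:**
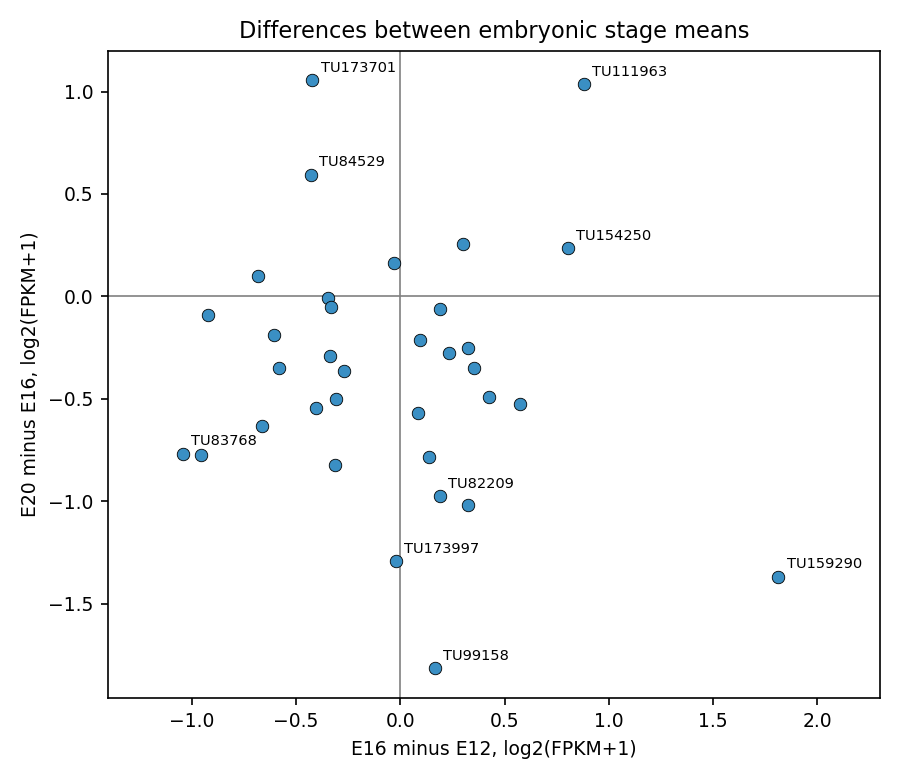
Difference between stage means for each of the 34 lncRNAs as log2(FPKM+1), with E16 minus E12 on the horizontal axis and E20 minus E16 on the vertical axis. Each point is 1 lncRNA. Of the 34, 27 lie below 0 on the vertical axis, and TU159290 stands apart with 1.81 on the horizontal and -1.37 on the vertical axis.

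Single lncRNAs were tested between adjacent stages with limma over all 32013 lncRNAs. A call needed a 2-fold change of FPKM plus 1 in either direction and p no higher than 0.05 after Bonferroni adjustment. Of the 34, 0 passed in E16 against E12, beside 0.0156% of all lncRNAs, and 0 in E20 against E16, beside 0.0250%. In the hens 0 passed in Y3 against Y1, beside 0.0156%, and 0 in Y5 against Y3, beside 0.103%. At an unadjusted p of at most 0.05 and the same fold change, 2, 4, 0 and 1 of the 34 passed in these comparisons, beside 1.49%, 1.56%, 1.69% and 2.94% of all lncRNAs. With the Benjamini-Hochberg adjustment 1 of the 34 passed in E20 against E16, beside 0.0781% of all lncRNAs, and 0 in the other comparisons. Among lncRNAs with a mean of at least 1 FPKM, 0 of 30 members passed in E20 against E16 with this adjustment. Of all 4206 at that level, 4 passed as higher and 6 as lower. The required change cannot be reached at very low levels, so nothing is read from the shares of all 32013. A difference that did not pass is not shown to be absent, as stages were represented by 2 or 3 birds. The spread between birds in these tests was pooled over all stages, not only those compared.

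The lncRNA that passed was TU173997, a weakly expressed transcript that was highest in the earlier embryos. Its level was 1.70, 1.65 and 1.90 at E12, 1.45, 1.62 and 2.12 at E16, and 0.60 and 0.27 at E20. It had no value in any D100 bird or in any hen except Y1 replicate 1, with 0.17. The E20 birds lay below all earlier embryos. The difference (E20 minus E16) was -1.29 ± 0.23 (SE), with a Benjamini-Hochberg-adjusted p of 0.0324 in limma. The SE pooled all stages, and its SD was 0 at D100, Y3 and Y5, where all values were set to 0. These stages lowered the SE, whereas the SD was 0.35 at E16 and 0.23 at E20. The Benjamini-Hochberg call was not stable, as the adjusted p ran from 0.0108 to 0.803 over the alternatives. It was 0.0503 with median-ratio scaling, 0.0505 in the numbered libraries alone, 0.176 in these with the replicate number as a block, 0.293 with a pseudocount of 0.1 and 0.803 in a fit of both stages alone. It was 0.0614 without E20 replicate 2, 0.0508 without D100 replicate 1, 0.0537 without D100 replicate 2 and 0.0547 without Y1 replicate 2.

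Several others differed between E16 and E20 without passing. TU99158 had a difference of -1.82 ± 0.61 (SE), with a Benjamini-Hochberg-adjusted p of 0.534 in limma, although its birds did not overlap. TU173701 was higher at E20, with a difference of 1.06 ± 0.39 (SE) and an adjusted p of 0.536.

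At D100, an age that the selection did not use, the 34 lncRNAs were spread between the levels of the embryos and the hens. Position was expressed on a scale with the adult mean at 0 and the embryonic mean at 1. Its median over the 34 was 0.33, with quartiles of 0.11 and 0.63, and 23 of the 34 were nearer to the adult mean. Every D100 bird lay below every embryo in 12 of the 34, beside 0.872% of all lncRNAs, and every D100 bird lay above every hen in 10 of the 34, beside 0.847%. As the selection had already separated embryos from hens, nothing is read from these shares against all lncRNAs. In 9 of the 34 no D100 bird exceeded the highest hen, among them TU13719 and TU173997, which had no value in any D100 bird. In 13 there were D100 birds on both sides, at or below the highest hen and at or above the lowest embryo. Neither count has a share of all lncRNAs beside it, and nothing is read from either.

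TU164180, TU111963 and TU776 had the highest positions. TU164180 was at 6.02, 5.67 and 4.30 at D100, with a position of 1.20. TU111963 was at 3.26, 3.93 and 1.16 (position 1.08), and TU776 at 4.06, 2.51 and 2.84 (position 0.97). The mean of the D100 birds was thus above that of the embryos for TU164180 and TU111963 and just below it for TU776, although replicate 3 of TU111963 lay within the range of the hens.

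TU137673, TU5430 and TU157330 had the lowest positions. TU137673 was at 2.54, 1.52 and 1.61 at D100 and ran from 1.15 to 2.40 in the hens, with a position of -0.16. TU5430 had a position of -0.15, and TU157330, at 0.69, 0.00 and 0.88, one of -0.10. For these lncRNAs the mean of the D100 birds was already at or below that of the hens.

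**Figure D5:**
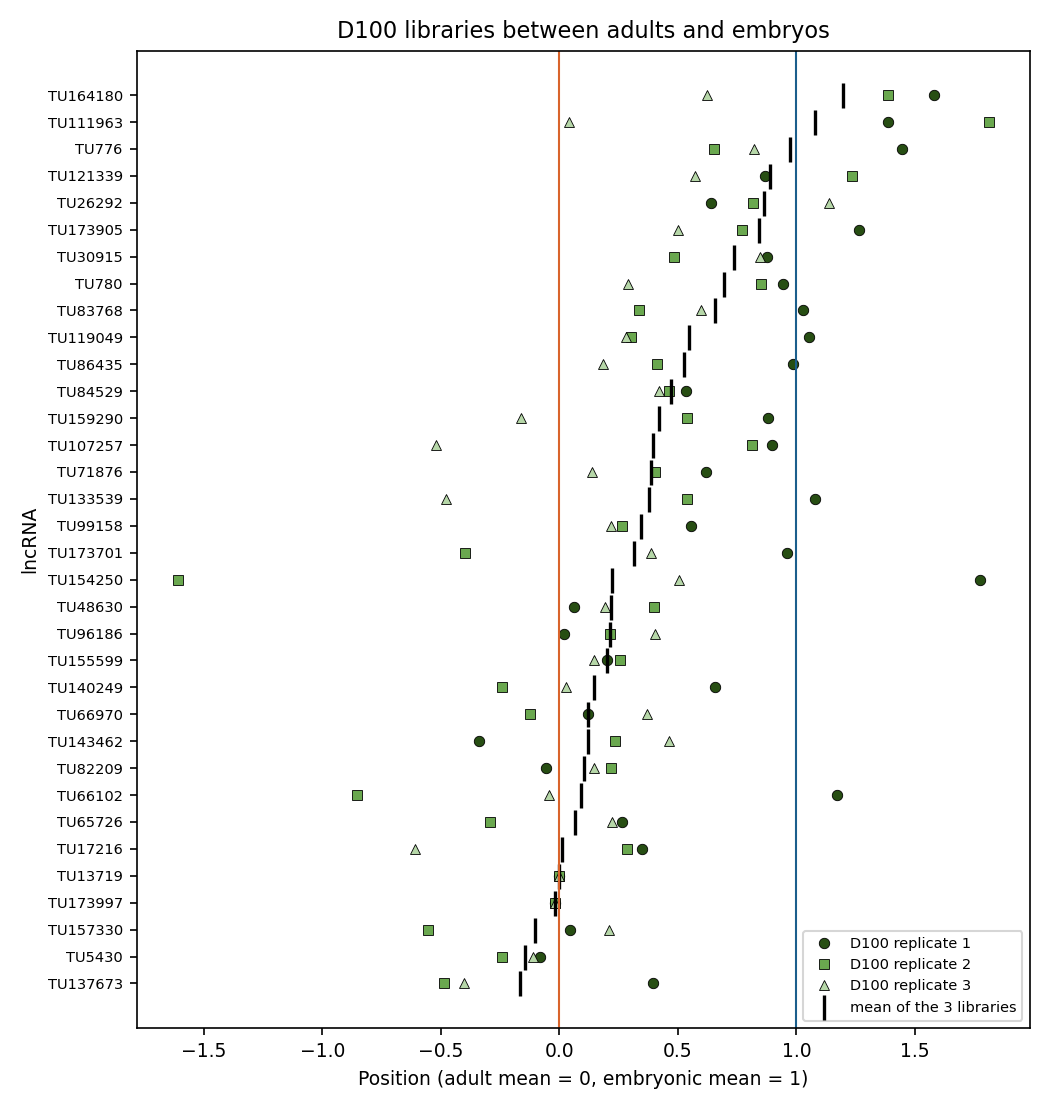
Position of each D100 library for each of the 34 lncRNAs (rows), on a scale with the adult mean at 0 (orange line) and the embryonic mean at 1 (blue line). Each symbol is 1 library and each black bar the mean of the 3. The means run from -0.16 to 1.20. D100 replicate 1 (dark circles) is the highest of the 3, with ties counted for it, in 24 of the 34.

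The D100 birds differed from each other more than the embryos of a stage did. The range between the 3 birds had a median of 1.11 over the 34 and exceeded 1 in 19, whereas it exceeded 1 in 6 of the 34 among the 3 E12 birds, in 6 among the 3 E16 birds and in 5 among the 3 Y1 hens. The SD between D100 birds had a median of 0.59 over the 34, beside 0.47 over the other lncRNAs with a mean of at least 1 FPKM. At E12 these medians were 0.26 and 0.30, so the other lncRNAs were also more variable at D100. The selection bounded the embryonic and adult libraries of the 34 but not the D100 libraries, so nothing is read from these contrasts.

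Most of the 34 were highest in the same D100 bird. Replicate 1 was the highest of the 3, with ties counted for it, in 24 of the 34, or 70.6%. The 24 include TU13719 and TU173997, which had no value in any D100 bird. Counted the same way, the share was 28.1% of the 4206 lncRNAs with a mean of at least 1 FPKM. Replicate 1 is 1 bird, and the 34 were selected for a shared difference whereas the 4206 were not. Nothing is therefore read from this contrast. The median position over the 34 was 0.65 in replicate 1, 0.29 in replicate 2 and 0.21 in replicate 3. Replicate 1 exceeded every hen in 23 of the 34, replicate 2 in 17 and replicate 3 in 15. These counts have no share of all lncRNAs beside them, and the selection bounded the hens from above. Nothing is read from them. The widest ranges were those of TU66102 and TU154250, the latter with 4.45, 0.63 and 3.02. The number of lncRNAs with a value was 14522, 13509 and 14952 in the 3 birds, and its part in this order was not tested.

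Among the hens, differences between ages were small at the median. The median difference over the 34 was -0.04 for Y3 minus Y1 and 0.04 for Y5 minus Y3, beside 0.12 and -0.22 over the 4206 lncRNAs. The selection bounded every hen from above in the 34 but not in the 4206, so nothing is read from this comparison. The highest hen was Y5 replicate a in 11 of the 34, Y1 replicate 1 in 6 and Y3 replicate b in 6. The count of Y1 replicate 1 includes TU13719, which had no value in any hen. Shares of all lncRNAs are not given beside these counts, and nothing is read from them. The largest difference was that of TU66102, with -2.86 ± 1.00 (SE) for Y5 minus Y3 (limma, Benjamini-Hochberg-adjusted p = 0.299).

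The mRNAs whose profile was most like the mean of the 34 over the 18 libraries were ENSGALG00000031457 on chromosome 1 (Pearson r = 0.971), ENSGALG00000010175 on chromosome 3 (r = 0.970) and ENSGALG00000001475 on chromosome 23 (r = 0.966), out of 14558 mRNAs. These values are a description of likeness. All 18 libraries share the step between periods, and r was 0.37, 0.69 and 0.80 among the 8 embryos alone and 0.41, -0.39 and -0.21 among the 7 hens alone. ENSGALG00000001475 was the most abundant of them and was highest at E12, with 12.17 ± 0.01 (SD, n = 3), beside 11.82 ± 0.14 (n = 3) at E16 and 11.19 ± 0.04 (n = 2) at E20. It was at 10.57 ± 0.28 (n = 3) at D100 and between 9.83 and 10.33 in the hens, so every hen was below every D100 bird and every D100 bird below every embryo.

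Some lncRNAs with neighbouring TU numbers were also higher in the embryos. Numbers within 5 of one of the 34 were held by 74 other lncRNAs of the 32013. Their embryonic mean exceeded the adult mean in 62.2%, beside 49.8% of all, and by at least 0.5 in 18.9%, beside 3.54% of all. These neighbours were looked up after the values were seen, were not matched on level and are given as a description. Among the 34, TU776 and TU780 were the only pair within this distance. TU780 was weak, with 0.50 to 1.96 in the embryos and 0.00 to 0.11 in the hens.

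TU26293, next in number to TU26292, was the neighbour of the 34 with the largest difference and was high in the embryos where TU26292 was low. TU26293 was 4.32, 3.11 and 4.81 at E12, 2.44, 2.87 and 3.18 at E16, and 4.54 and 3.44 at E20. It was highest in E12 replicate 3, where TU26292 was lowest, and lowest in E16 replicate 1, where TU26292 was highest. In the hen Y5 replicate b, TU26292 had its lowest value of all libraries and TU26293, at 3.99, its highest among the hens. The summed FPKM of both was between 65.3 and 105 in the embryos and between 4.43 and 25.6 in the hens. Whether both transcripts share reads was not tested, and the level of TU26292 in a single bird is uncertain to that extent.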

How the data were processed

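The authors aligned reads of 21 libraries with HISAT2 to Gallus_gallus-5.0, assembled transcripts with StringTie 1.3.3, computed FPKM with StringTie and Cufflinks 2.2.1, and deposited log2 values of FPKM plus 1. Of the value columns, 3 for each class of RNA name no stage and were not used, so 18 libraries at 7 stages were analysed and D300 was not. Columns of Y3 and Y5 are called replicate a and b, since their numbers do not match the sample titles.

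Differences between adjacent stages were fitted over 32013 lncRNAs by limma 3.58.1 (R 4.3.3), with a mean for each stage and a variance trend, and called with Bonferroni adjustment, and the procedure was tested on simulated data. Other steps used Python 3.11.15, numpy 2.4.6, pandas 2.3.3 and matplotlib 3.10.9. Each library came from 1 bird. The p-values measure a spread between birds pooled over all stages, except in the fits of both stages alone. A standard error can therefore differ from the spread of the birds compared. TU154250 had an SD of 0.015 at E16, 0.012 at E20 and 1.93 at D100. Its SE for E20 minus E16 was 0.69. Because FPKM is increased by 1 before taking logs, changes at low levels are understated. Depth in reads was not used here.

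The members and lists were chosen with earlier results of these data known. The named lncRNAs were the 10 largest differences, the 5 most abundant in embryos, 3 on each side of the limit, those called by limma, the 3 highest and 3 lowest positions of D100, those in the qPCR panel, and 3 mRNAs by likeness. The limit of 150 members did not bind. TU13719, TU82209, TU173905, TU780, TU26293, TU155599, TU17216, TU86435, TU84529 and single lncRNAs named for their embryonic course were chosen after their values were seen. Alternatives were other corrections, a pseudocount of 0.1, a mean of at least 1 FPKM, no filter, median-ratio scaling, missing cells left missing, both stages alone, a replicate block, and leaving out each library. Leaving out E16 and E20 libraries in the count of stages that do not overlap was added after seeing the data.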

Additional observations from a re-analysis of the deposited data

Results flagged for a closer look

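In 68 groups (34 lncRNAs in 8 embryos and in 7 hens), a single library lay far from the others in 5, where the gap to the nearest library was large against the range of the group. The rate by chance was taken as about 1 in 20 groups. The selection bounded the embryos from below and the hens from above, and some values were set to 0. The 5 are therefore not read against that rate. TU82209 was at 1.97 in E20 replicate 1, and the nearest embryo was at 2.91. TU155599 was at 2.78 in E12 replicate 2, and the nearest embryo was at 1.68. TU776 was at 0.43 in Y3 replicate a, and the nearest hen was at 1.15. TU137673 was at 1.15 in Y1 replicate 3, and the nearest hen was at 2.07. TU173997 was at 0.17 in Y1 replicate 1 and had no value, taken as 0, in the other hens.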

How the results depend on the processing

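The number of lncRNAs that met the selection was 34, 73 with a pseudocount of 0.1, and between 37 and 67 when 1 library was left out. The highest of these was without E20 replicate 1, where the share of embryo-higher among both directions rose from 28.3% to 39.2%. With missing cells left missing it was 23, and that share 39.7%, as an lncRNA then needed a value in every embryo and hen. Of the 33 members with a difference under this setting, 0 reversed and 32 stayed at 1 or more. The median difference of 1.45 became 2.48 with a pseudocount of 0.1. Of the 34 members, 25 were kept with median-ratio scaling, 23 with missing cells left missing, 30 at a mean of at least 1 FPKM, and 33 or 34 in the others. Under median-ratio scaling 3 in place of 5 had every E16 bird lower than every E12 bird. The share of all lncRNAs under that scaling is not given here, so nothing is read from this count. At an unadjusted p, 2 members passed in E16 against E12, 4 in E20 against E16 and 1 in Y5 against Y3, beside 478, 501 and 940 of all lncRNAs, and with Benjamini-Hochberg 1 passed in E20 against E16, where limma with Bonferroni gave 0. All 32013 lncRNAs gave 5, 8, 5 and 33 calls with Bonferroni in the 4 comparisons, 36, 25, 24 and 175 with Benjamini-Hochberg, and 0 in each fit of both stages alone. Deviations of same-numbered libraries from their stage means correlated at between -0.11 and 0.09. With 2 birds at E20 the deviations mirror each other, so this does not decide whether same-numbered libraries share more than a number. With the replicate block 0 members passed by limma in E16 against E12 and in E20 against E16, as without it, and 2 and 1 of all lncRNAs were called, beside 2 and 4 without the block. Stages of 2 birds limit what could be detected, and depth in reads was not used.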
